A study of Mus musculus with 46 samples.

Results

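The genes described are the mouse zinc finger genes that carry a plain Zfp number or a Zscan name. They were taken as the protein-coding rows with such a name in both deposited tables of cultured thyroid tumour cells, which gave 329 of 14888 listed genes, 318 with a Zfp and 11 with a Zscan name. Of these, 325 of 14360 genes were listed for the comparison of cell lines and 321 of 14056 for the addback experiment, and 317 stood in both. The names make up a naming series and not 1 family, so the protein types are given below.

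The series is mouse RNA-seq, and 14 of its 46 libraries, those of cultured thyroid cells, carried the values used here. The RPM lines (4 libraries) are Rb/p53/Max mutant and the RP lines (4 libraries) are Rb/p53 mutant, derived from mice in which a tamoxifen-dependent Ascl-CRE removed these genes in neuroendocrine cells. The Max addback (3 libraries) and the empty vector (3 libraries) were made in a single RPM line, H7536, which is also RPM replicate 2, so every library of that experiment is Rb/p53/Max mutant and comes from 1 line. The comparison of lines asks which transcripts differ when Max is missing on an Rb/p53 mutant background, and the addback asks which change when Max is returned.

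The listed libraries held 7829982 to 8498396 reads for the lines and 6738614 to 7912573 for the addback experiment. Max itself was measured at 220 to 251 CPM (reads of a gene scaled to a common library size, TMM-normalised) with addback and at 83.1 to 96.0 CPM with empty vector; in the lines the whole-gene count, which does not check the deletion, was 80.9, 103, 68.9 and 100 CPM in RPM lines and 65.2, 44.7, 50.8 and 57.5 CPM in RP lines. The 8 C cell and neuroendocrine markers summed to 4021 to 16170 CPM in RPM lines and to 4464 to 5695 CPM in RP lines, while follicular thyroid, endothelial and leukocyte markers stayed below 9 CPM in sum. The 4 epithelial markers summed to 108 to 3376 CPM in RPM lines and to 1672 to 3078 CPM in RP lines, and the 2 listed fibroblast markers to 3.32 to 45.7 CPM in RPM lines and 6.38 to 144 CPM in RP lines; their part in the results was not tested. The Y-linked gene Ddx3y was at 0 in all 3 addback libraries, against 157 to 177 CPM in the empty vector libraries. In the untransduced library of that line, RPM replicate 2, which was normalised apart, it was at 125 CPM. Effects of Max and other differences between the addback and the empty vector cells therefore cannot be told apart. RPM replicate 1 shares its animal identifier with tumours whose labels give an Rb/p53 mutant genotype. Without that library 77 genes were called higher and 184 lower in RPM lines, against 30 and 18 with it, of which 2 and 1 were members, against 2 and 0 with it. The line libraries are separate lines; nothing in the labels says whether the addback and vector libraries were separate cultures, so their p-values measure only the spread between these samples.

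Most Zfp genes encode proteins with tandem C2H2 fingers, each a loop held by a zinc ion that reads a few bases of DNA. In many of them the fingers follow a KRAB box, which recruits TRIM28 and through it the histone methyltransferase SETDB1, and such KRAB zinc finger proteins are known for silencing retrotransposons and for guarding imprints. KRAB zinc finger genes multiplied by local duplication and sit in clusters, and the SCAN domain of Zscan proteins joins these proteins into dimers. MAX is the common dimer partner of MYC and of the repressors MXD, MNT and MGA, and its dimers bind the E-box CACGTG, a hexamer that other basic helix-loop-helix factors bind too.

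The coding sequences of 328 members could be translated from the GENCODE annotation. A C2H2 finger was found by its spacing in all but 14 of them, with a median of 10 fingers and at most 33. A KRAB-like run was found in 172 and a SCAN-like run in 21, among them 10 of the 11 Zscan names. KRAB-like members had a median of 12 fingers and the others of 7. The members without a finger by this pattern include Zfp36, a CCCH protein that speeds the decay of messenger RNA, and Zfp185, a LIM protein of the actin skeleton, so the shared name does not stand for a shared protein type.

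Members were expressed at a lower level than the median gene. Per length, their median level was 4.81 RPKM (CPM divided by gene length) in RPM lines and 4.60 RPKM in RP lines, while the median over all listed genes was 7.24 RPKM in RPM lines and 7.18 RPKM in RP lines; 4 members lay below a mean of 1 CPM. Per length, the 5 highest in RP lines were Zfp664, Zfp598, Zfp395, Zfp207 and Zfp706. Zfp598, the ubiquitin ligase that marks collided ribosomes, averaged 39.4 ± 10.6 RPKM in RPM lines and 40.6 ± 5.85 RPKM in RP lines (SD, n = 4 each). Zfp207, a kinetochore and splicing factor, averaged 39.1 ± 3.01 RPKM in RPM lines and 35.8 ± 1.10 RPKM in RP lines (SD, n = 4 each). Zfp664 averaged 35.7 ± 2.39 RPKM in RPM lines and 42.5 ± 11.7 RPKM in RP lines (SD, n = 4 each). Zfp395 averaged 26.5 ± 6.62 RPKM in RPM lines and 36.7 ± 12 RPKM in RP lines, and Zfp706 averaged 29.4 ± 1.45 RPKM in RPM lines and 32.8 ± 3.58 RPKM in RP lines (SD, n = 4 each). The spreads of these 5 overlap, so their order does not hold beyond the error, and none of the 5 passed the test between RPM and RP lines.

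Between the lines, 2 of 325 members were called higher in RPM lines and none was called lower. The rule was a Benjamini-Hochberg adjusted p under 0.05 in limma, on log2(CPM + 1), over all 14360 genes; by it 0.209% of all listed genes were higher and 0.125% lower. At an unadjusted p under 0.05 the members numbered 52 (16%), against 15.9% of all genes; edgeR on the recovered reads called 0 members in either direction, against 0.00696% of all genes higher and 0.0139% lower. DESeq2 called 7 members higher and 6 lower, against 2.44% of all genes higher and 2.14% lower. The 2 called members were Zfp105 and Zscan18, which the list names outright, so their place in it is no result.

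Zfp105 (ENSMUSG00000057895, chromosome 9, 122923072 to 122931028, plus strand, mm10) encodes a protein of 11 fingers without a KRAB-like run and is best known from testis. It was at 6.64, 8.98, 13.1 and 12.3 CPM in the 4 RPM lines, against 0, 0.962, 0 and 0.236 CPM in the 4 RP lines. In reads this was 52, 72, 111 and 99 in RPM lines and 0, 8, 0 and 2 in RP lines. Every RPM line lay above every RP line, and 2 RP lines had no read at all. The log2 change was 3.13 (adjusted p = 0.0179 by limma, SE 0.316). Permuting the libraries exactly gave a two-sided p of 0.0286, and 4 against 4 libraries allow none smaller. Every gene without overlap between the groups reaches this value, as 9.37% of all genes did, so it adds nothing to the absence of overlap.

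With Max returned, Zfp105 moved the other way. It was at 2.03, 3.61 and 3.86 CPM with addback, against 5.86, 9.23 and 7.79 CPM with empty vector, and its log2 change was -1.06 (adjusted p = 0.00244 by limma, SE 0.218). The 3 addback libraries all lay below the 3 vector libraries but above all 4 RP lines, a level set across 2 tables that were normalised apart. Permuting these libraries exactly gave a two-sided p of 0.1, and 3 against 3 libraries allow none smaller. Here too every gene without overlap reaches this value, as 61.9% of all genes did.

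Zscan18 (ENSMUSG00000070822, chromosome 7, 12768090 to 12803635, minus strand, mm10) encodes a SCAN domain protein with 1 finger by the pattern used. It was at 22.7, 22.2, 23.6 and 24.6 CPM in RPM lines, against 3.85, 4.21, 9.14 and 6.12 CPM in RP lines. The RPM lines were tight and the RP lines were all at less than 10 CPM. The log2 change was 1.89 (adjusted p = 0.0381 by limma, SE 0.271; exact permutation p = 0.0286, two-sided). With addback it was at 9.41, 12.3 and 12.3 CPM, against 14.0, 12.6 and 14.5 CPM with empty vector, and this difference did not pass the test (log2 change -0.26, SE 0.138, limma adjusted p = 0.138). The untransduced library of the same line, RPM replicate 2, had 22.2 CPM in the table of the lines.

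Promoter windows from RefSeq, build GRCm38.p6, reached from 250 bases before to 50 after each annotated start, and 276 members had one. Zfp105 has no E-box in its window. Zscan18 holds 2, one 21 bases after its outer start and one 110 bases before its inner start. The inner one is shown here because Zscan18 is the one of the 2 members called in the lines that holds the hexamer; capitals mark the E-box and the strand is the one of the gene (chr7:12780755-12780804, minus strand).
Zscan18: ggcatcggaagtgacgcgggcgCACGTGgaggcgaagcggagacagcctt

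Few changes passed the test in a design of 4 against 4 lines, so the members were also sorted by whether the RPM and RP libraries overlap at all. In 26 of 325 members (8.0%) every RPM library lay above every RP library, and in 14 (4.31%) every RPM library lay below. Over all 14360 genes these shares were 4.97% and 4.39%, or 9.37% in either direction against 12.3% of members. Without RPM replicate 1 the members below numbered 31, and without RP replicate 2 they numbered 26. The members above numbered 39 without RPM replicate 1 and 40 without RPM replicate 4. Leaving out a library can only keep or raise such counts, and no share over all genes was set beside them. The median log2 change was 0.05 over the members and -0.01 over all genes, with quartiles of -0.18 and 0.32 for the members. A difference of 2-fold or more was seen in 3.69% of members and in 8.71% of all genes; by level, the shares of members and of all genes were 9.76% and 10.3% below 5 CPM, 6.25% and 17.3% at 5 to 20 CPM, 0.82% and 8.45% at 20 to 60 CPM, and 0% and 3.29% above 60 CPM.

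Behind Zfp105 and Zscan18, the members with the largest positive differences and no overlap were Zfp677, Zfp820, Zfp296 and Zfp493. Zfp677, a KRAB-like gene, was at 9.06, 6.11, 17.4 and 9.04 CPM in RPM lines, against 2.89, 3.37, 1.34 and 4.59 CPM in RP lines (log2 change 1.47, SE 0.377, limma adjusted p = 0.159). Zfp820, also KRAB-like, was at 8.68, 3.12, 3.43 and 6.57 CPM in RPM lines, against 0.120, 1.68, 1.71 and 2.94 CPM in RP lines (log2 change 1.34, SE 0.447, limma adjusted p = 0.232). Zfp296, known from embryonic stem cells and germ cells, was at 2.04, 3.74, 2.60 and 1.86 CPM in RPM lines, against 0.602, 1.68, 0.366 and 0.353 CPM in RP lines (log2 change 1.06, SE 0.293, limma adjusted p = 0.183). Zfp493 was at 3.45, 4.36, 4.38 and 3.47 CPM in RPM lines, against 1.93, 1.08, 0.853 and 3.42 CPM in RP lines. In these 4 the groups stand apart in every library, but the gap is small beside the spread and none passed the test.

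On the other side stood 2 members with much larger differences and a wide spread. Zfp536, a repressor of neuronal differentiation, was at 0.128, 0.873, 6.98 and 0 CPM in RPM lines, against 26.0, 16.1, 56.1 and 37.5 CPM in RP lines (log2 change -3.97, SE 0.679, limma adjusted p = 0.0609). Zfp618, a partner of the DNA methylation reader UHRF2, was at 33.3, 0.748, 1.54 and 0.248 CPM in RPM lines, against 53.8, 68.5, 55.0 and 37.6 CPM in RP lines (log2 change -3.85, SE 0.938, limma adjusted p = 0.147). For Zfp618 a single library carries the spread: RPM replicate 1 was close to the lowest RP line and the other 3 RPM lines were at or below 1.54 CPM. Without RPM replicate 1 its log2 change was -4.92 and the limma adjusted p was 0.00267. That library was singled out after its value was seen, and Zfp618 passed in only 1 of 16 settings. Leaving it out also raised the calls over all genes to 77 higher and 184 lower, from 30 and 18.

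The other 4 of the largest negative differences were smaller. Zscan10, a pluripotency factor, was at 0.255, 0, 0.8285 and 0.124 CPM in RPM lines, against 2.04, 1.44, 4.39 and 2.59 CPM in RP lines, a few reads in each library. Zfp580 was at 19.1, 17.7, 14.8 and 16.1 CPM in RPM lines, against 23.3, 29.7, 38.8 and 34.9 CPM in RP lines. Zfp579 was at 31.5, 26.1, 20 and 21.6 CPM in RPM lines, against 38.7, 47.1, 41.2 and 36.2 CPM in RP lines. Zfp768 was at 30.8, 22.4, 26.9 and 22.2 CPM in RPM lines, against 46.6, 39.9, 48.8 and 33.4 CPM in RP lines. Their limma adjusted p-values lay between 0.120 and 0.165. The authors' deposited table called 3 members higher in RPM lines, Zfp105, Zscan18 and Zfp521, and 3 lower, Zfp536, Zfp618 and Zscan10 (1.85% of members in either direction). The same deposited calls by the authors cover 1.72% of all genes higher, 2.47% lower and 4.19% in either direction.

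**Figure D1:**
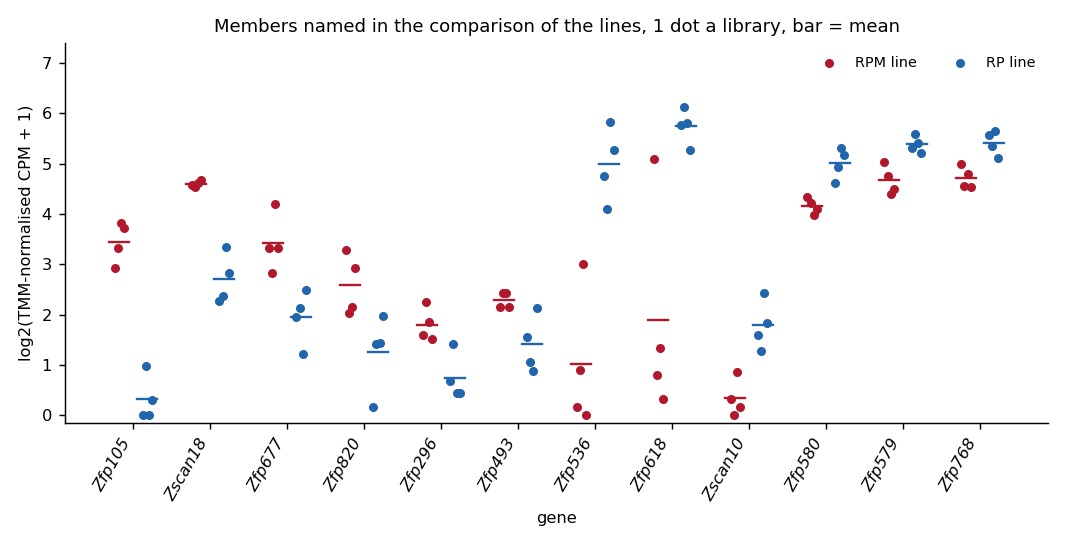
Level of the 12 members named in the comparison of the lines, on log2(CPM + 1). Each dot is a library (RPM lines left, RP lines right of each gene) and each bar the mean of 4. No gene shows overlap between the groups, since all 12 are among the members picked for that, Zfp105 and Zscan18 also being called. The RPM line of Zfp618 at 33.3 CPM sits near the lowest RP line, at 37.6 CPM.

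With Max addback many more genes were called than in the lines, among members as elsewhere. Of 321 members 59 (18.4%) rose and 56 (17.4%) fell by the same limma rule, against 27.7% and 25.5% of all 14056 genes. In either direction this was 35.8% of members and 53.2% of all genes, and without overlap between the libraries stood 47.7% of members and 61.9% of all genes. The authors' deposited table called 34 members higher (10.6%, against 18.9% of all genes) and 25 lower (7.79%, against 13.1% of all genes), which is 18.4% of members and 32.0% of genes in either direction. Without empty vector replicate 1 the members that fell numbered 36, without replicate 2 they numbered 37 and without replicate 3 again 36. Over all genes those that fell numbered 2846, 2897 and 2909 in these fits, against 3582 with all libraries. With library totals in place of TMM, which moves the median of all genes by 0.07 on the log2 scale, 73 members rose and 41 fell. Over all genes 4507 rose and 2919 fell with library totals, against 3896 and 3582 with TMM. By level, members were called in 50% of cases below 5 CPM, against 49.5% of all genes, in 30.2% against 55.5% at 5 to 20 CPM, in 33.3% against 53.4% at 20 to 60 CPM, and in 44.7% against 54.1% above 60 CPM. The quartiles of the log2 change were -0.24 and 0.22 for members and -0.32 and 0.38 for all genes. In this bulk RNA, fewer cells that express a gene and less of its RNA per cell cannot be told apart. The 4 epithelial markers summed to 388 to 458 CPM with addback and to 54.1 to 60.7 CPM with empty vector, and the 2 listed fibroblast markers, Dcn and Col1a1, to 5.34 to 7.10 CPM with addback and 28.9 to 39.2 CPM with empty vector. The 8 C cell and neuroendocrine markers summed to 5650 to 6406 CPM with addback and to 4337 to 4593 CPM with empty vector; Chgb, Chga and Calcb rose by 2.26, 1.38 and 3.43 on the log2 scale, and Calca did not pass the test (-0.13). The part of these shifts in the member changes was not tested.

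Zfp811, a KRAB-like gene of the chromosome 17 clusters, rose most. It was at 13.6, 16.4 and 15.6 CPM with addback, against 0.858, 0.284 and 0.611 CPM with empty vector (log2 change 3.37, SE 0.174, limma adjusted p = 1.97e-07). Zfp532, a partner of Zfp592 and Zfp687 in a chromatin complex, was at 20.6, 21.5 and 17.2 CPM with addback, against 3.29, 3.69 and 2.59 CPM with empty vector (log2 change 2.31, limma adjusted p = 1.06e-06). Zfp536 was at 4.70, 3.36 and 4.50 CPM with addback, against 0.429, 0.142 and 0 CPM with empty vector (log2 change 2.13, limma adjusted p = 1.11e-05). The groups were far apart in each of these 3 genes.

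Zfp185 averaged 6.30 ± 0.451 CPM with addback and 0.780 ± 0.183 CPM with empty vector (SD, n = 3 each). Zfp503, a regulator of striatal and limb development, was at 74.8, 70.2 and 67.3 CPM with addback, against 24.2, 24.2 and 24.1 CPM with empty vector, a log2 change of 1.51. Zfp467, which steers mesenchymal cells between fat and bone, averaged 25.7 ± 2.36 CPM with addback and 8.48 ± 1.48 CPM with empty vector (SD, n = 3 each), a log2 change of 1.5. Zfp454 averaged 6.17 ± 0.784 CPM with addback and 1.55 ± 0.392 CPM with empty vector, and Zfp934 11.6 ± 1.67 CPM with addback and 4.06 ± 0.976 CPM with empty vector (SD, n = 3 each). All 8 passed the limma test with adjusted p of 0.000159 or less and without overlap between groups.

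The line before transduction was measured in the table of the lines, as RPM replicate 2, and there each of the 8 rising genes lay between its addback and its empty vector libraries. Zfp811 had 9.10 CPM, Zfp532 14.8 CPM, Zfp503 65.0 CPM and Zfp467 17.8 CPM in that library, nearer to the addback values. Zfp536 had 0.873 CPM and Zfp185 1.75 CPM in it, nearer to the empty vector values. Zfp454 and Zfp934 had 3.99 and 7.48 CPM in it. Of the 8 genes with the largest falls, Zfp521 (34.2 CPM), Zfp365 (1.12 CPM) and Zfp516 (68.8 CPM) also lay between both groups there. Zfp105 (8.98 CPM) and Zfp593 (2.99 CPM) lay inside the range of the empty vector libraries, Zfp820 (3.12 CPM) and Zfp330 (32.4 CPM) inside that of the addback libraries, and Zfp462 (104 CPM) above both. These levels stand across 2 tables that were normalised apart and were not tested, and this reading was added after the values were seen.

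Zfp521, a transcriptional regulator of neural and mesenchymal progenitors, fell most. It was at 19.1, 22.3 and 14.3 CPM with addback, against 69.9, 68.8 and 60.2 CPM with empty vector (log2 change -1.8, SE 0.148, limma adjusted p = 5.20e-06). In the lines it was uneven, at 1.40, 34.2, 3.67 and 5.08 CPM in RPM lines and 0.481, 0, 1.22 and 4.00 CPM in RP lines, and RPM replicate 2, the line used for the addback, was by far the highest. Zfp365, which binds the scaffold protein DISC1, was at 0.636, 0.872 and 0.900 CPM with addback, against 3.43, 3.98 and 2.29 CPM with empty vector, a log2 change of -1.21. Zfp593, whose yeast counterpart acts in the export of the large ribosomal subunit, was at 1.27, 0.872 and 1.16 CPM with addback, against 3.00, 3.55 and 2.90 CPM with empty vector, a log2 change of -0.98. Zfp820 was at 3.69, 4.61 and 2.83 CPM with addback, against 8.29, 8.10 and 7.48 CPM with empty vector, a log2 change of -0.94.

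Zfp462, a chromatin regulator of neural development, averaged 38.8 ± 9.39 CPM with addback and 71.5 ± 3.97 CPM with empty vector (SD, n = 3 each). Zfp330, a nucleolar protein, averaged 35.0 ± 3.93 CPM with addback and 65.6 ± 2.14 CPM with empty vector (SD, n = 3 each). Zfp516, an activator of brown fat genes, averaged 51.2 ± 7.22 CPM with addback and 93.1 ± 1.8 CPM with empty vector (SD, n = 3 each). Their log2 changes lay between -0.86 and -0.89, and all 8 genes with the largest falls, Zfp105 among them, passed the limma test with adjusted p of 0.00244 or less. Addback replicate 3 was the lowest of its group for Zfp521, Zfp462 and Zfp516, and the lowest of all 6 libraries for 103 of the 321 members. Over all genes it differed from addback replicates 1 and 2 with a chi-square per degree of freedom of 15.5 and 13.2, against 1.76 to 1.90 for addback replicates 1 and 2 and for the pairs of vector libraries. Without it 80 members rose and 65 fell. Over all 14056 genes 4575 rose and 4460 fell without it, against 3896 and 3582 with it.

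**Figure D2:**
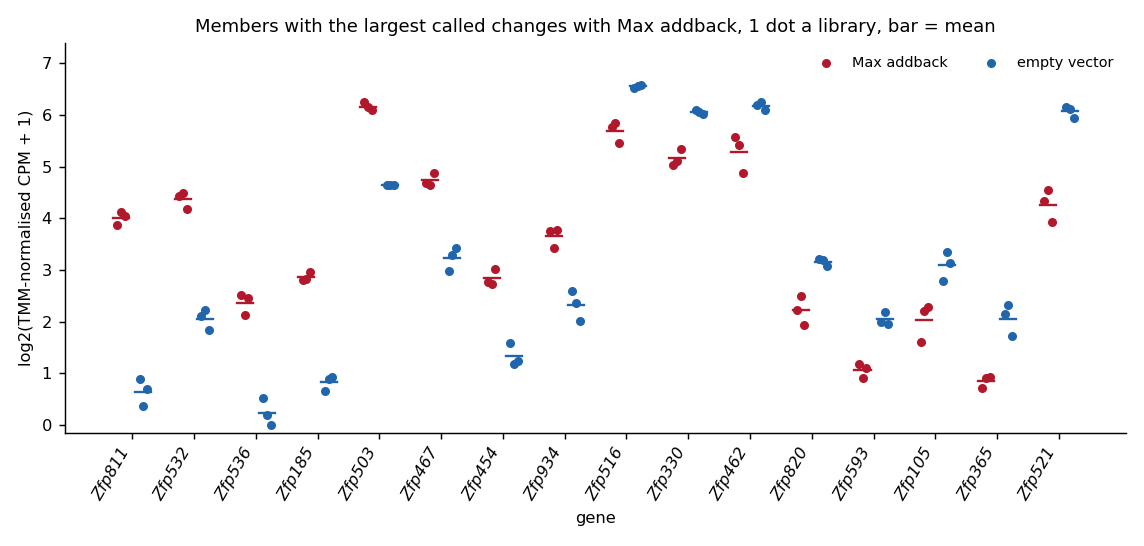
Level of the 8 members that rose and the 8 that fell most with addback, on log2(CPM + 1), in the order of their change. Each dot is a library (Max addback left, empty vector right of each gene) and each bar the mean of 3. The groups do not overlap for any of the 16 genes.

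Sorted by what the proteins do, the 3 members with a part in ribosome building and quality control all fell with addback, as did 25.5% of all genes. Zfp593 is given above. Zfp622, whose yeast counterpart matures the large subunit in the cytoplasm, was at 36.1, 37.2 and 43.4 CPM with addback, against 47.3, 50.7 and 48.5 CPM with empty vector (log2 change -0.32, limma adjusted p = 0.0160). Zfp598 was at 121, 111 and 110 CPM with addback, against 137, 133 and 137 CPM with empty vector (log2 change -0.25, limma adjusted p = 0.0148). Zfp622 passed in 9 and Zfp598 in 10 of 14 settings, Zfp593 in all 14. In the lines none of the 3 passed the test, against 0.334% of all genes. Zfp593 alone had no overlap there, at 1.28, 2.99, 2.13 and 1.24 CPM in RPM lines, against 1.08, 0.722, 1.22 and 0.353 CPM in RP lines.

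Of the 8 listed members on the list for imprints and retroelements, 5 fell with addback and 1 rose, against 25.5% and 27.7% of all genes. Zfp57 and Zfp445, both of which hold imprints in the early embryo, fell: Zfp57 to 3.69, 2.74 and 4.11 CPM with addback, against 6.15, 6.82 and 7.48 CPM with empty vector, and Zfp445 to 121, 118 and 85.2 CPM with addback, against 186, 186 and 185 CPM with empty vector. Their log2 changes were -0.80 (limma adjusted p = 0.00228) and -0.79 (limma adjusted p = 0.000444). Zfp809, which silences murine leukaemia virus at its primer binding site, averaged 16.8 ± 2.60 CPM with addback and 23.96 ± 2.97 CPM with empty vector (SD, n = 3 each; log2 change -0.49, limma adjusted p = 0.0145). Zfp961 averaged 36.6 ± 0.694 CPM with addback and 55.5 ± 6.45 CPM with empty vector, and Zfp69, known from fat metabolism and not from imprints, 3.21 ± 0.657 CPM with addback and 6.16 ± 1.41 CPM with empty vector (SD, n = 3 each). The gene that rose was Zfp110, a partner of the neurotrophin receptor p75, at 46.5 ± 3.30 CPM with addback and 37.9 ± 3.11 CPM with empty vector (SD, n = 3 each), so it too does not do what the list is named for. Zfp809 passed in 12 and Zfp110 in 10 of 14 settings. In the lines, none of the 7 listed members of this list passed the test, against 0.334% of all genes, and their median log2 change was -0.12.

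The counts of the next lists stand beside 27.7% of all genes that rose and 25.5% that fell. Among 8 RNA-binding members, Zfp36 rose to 12.2 ± 1.53 CPM with addback, against 5.56 ± 1.14 CPM with empty vector (SD, n = 3 each; log2 change 1.02, limma adjusted p = 0.000575). Zfp106, an RNA-binding protein of motor neurons, and Zfp207 fell, by log2 changes of -0.57 and -0.26. Among 15 chromatin and promoter cofactors 4 rose and 3 fell. Zfp827, which recruits the NuRD complex, averaged 37.0 ± 5.62 CPM with addback and 18.7 ± 2.09 CPM with empty vector (SD, n = 3 each). Zfp687 (log2 change 0.51), Zfp644, a partner of the methyltransferase G9a (0.45), and Zfp64 (0.33) also rose. Zfp462, Zfp143, which binds many housekeeping promoters (-0.33), and Zfp91, a ubiquitin ligase (-0.22, limma adjusted p = 0.0467), fell. Zfp91 passed in 5 of 14 settings, with adjusted p of up to 0.155; Zfp207 passed in 11, and Zfp106, Zfp143 and Zfp64 in 13.

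Among 10 members on the list for neural and mesenchymal development 3 rose and 4 fell, and beyond those above the fourth that fell was Zfp704, at 107 ± 20.1 CPM with addback and 181 ± 9.10 CPM with empty vector (SD, n = 3 each). Of 6 members tied to pluripotency and germ cells, Zfp105 and Zfp57 fell and none rose. In the lines, where 0.334% of all genes passed the test, Zfp105 was the only member of any role list that did. The list rule names Zfp105 outright, so this is no result about the role lists.

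The cofactors that KRAB boxes use were measured as well. None of the 26 genes of the list passed the test in the lines, against 0.334% of all genes, so a list of this size is not expected to hold a call. Trim28 averaged 524 ± 132 CPM in RPM lines and 695 ± 49.2 CPM in RP lines (log2 change -0.44, limma adjusted p = 0.308). Setdb1 averaged 108 ± 9.42 CPM in RPM lines and 104 ± 15.3 CPM in RP lines (SD, n = 4 each). The median log2 change of the list was -0.20. With addback 3 of the 26 rose (Chd3, Ehmt1 and Cbx1) and 4 fell (Cbx3, Uhrf1, Rbbp4 and Sumo2), against 27.7% and 25.5% of all genes. Trim28 averaged 491 ± 29.9 CPM with addback and 500 ± 15.2 CPM with empty vector (SD, n = 3 each). In the MAX network, Mnt was the only 1 of 13 genes that passed the test in the lines, at 112 ± 12.8 CPM in RPM lines and 55.8 ± 3.17 CPM in RP lines (SD, n = 4 each; log2 change 0.99, limma adjusted p = 0.0325).

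The members were also split by whether the loose pattern found a KRAB-like run, which is not a domain call. Members without such a run may still hold a KRAB box that the pattern missed. Among 170 KRAB-like members listed for the lines, 15 had all RPM libraries above all RP libraries and 1 had them below, with a median log2 change of 0.12. Among 154 members without a KRAB-like run the counts were 11 above and 13 below, with a median of -0.06. Over all genes 4.97% lay above and 4.39% below. Over the 16 settings tried the KRAB-like median stayed between 0.10 and 0.16 and the other between -0.09 and -0.02. With addback, 23 of 168 KRAB-like members rose and 32 fell, and 36 of 153 others rose and 24 fell, against 27.7% and 25.5% of all genes. These counts describe the 2 groups that the pattern gives and were not tested against each other. Of the 15 KRAB-like members above, 5 and 3 stand in clusters on chromosome 17 and 4 in a cluster on chromosome 13, described below. That count therefore largely repeats the genes of those clusters.

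**Figure D3:**
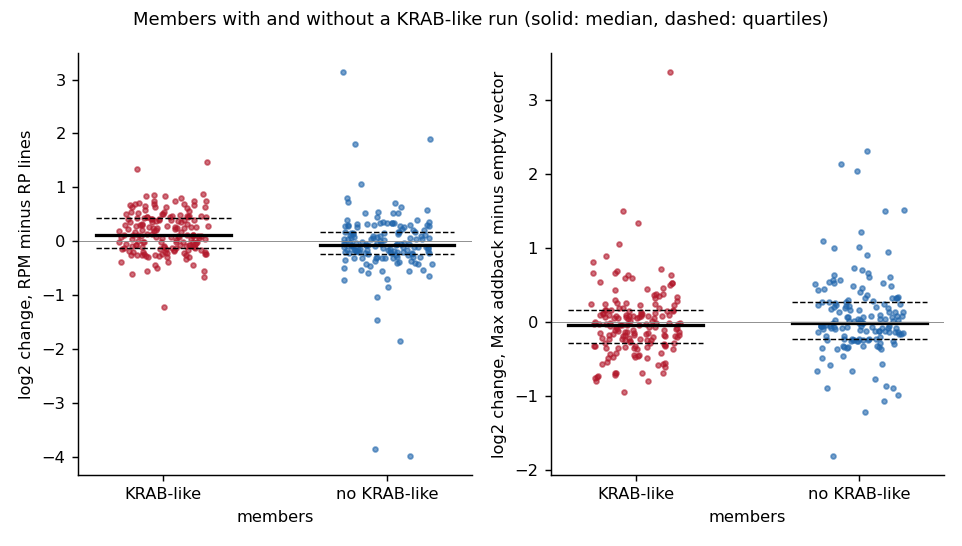
Log2 change of each member with and without a KRAB-like run, for RPM minus RP lines on the left and Max addback minus empty vector on the right. Each dot is a gene, the solid line the median and the dashed lines the quartiles. The KRAB-like median is 0.12 in the lines and -0.04 with addback; for the others it is -0.06 and -0.02.

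Many members had close neighbours. Members within 250 kb of the next formed 25 runs of 3 or more with 163 members, and 66.3% of KRAB-like members stood in such a run, against 31.4% of the others. Chromosomes 7, 17 and 13 carried 89, 42 and 28 members. Genes of such clusters can be near-identical copies, so reads that match several copies may have been lost or given to a neighbour. Single values are then less certain. Neighbours may also not be independent of each other, so a shared direction of a run is not more certain. The runs of 10 or more members are described.

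The longest run, 18 members on chromosome 17 between 21383748 and 22456689, had estimates on 1 side of 0 along its whole length. All 18 members had a positive log2 change in RPM over RP lines, from 0.12 for Zfp758 to 1.47 for Zfp677, with a median of 0.54 against -0.01 for all genes. In 5 of the 18, Zfp677, Zfp948, Zfp820, Zfp995 and Zfp994, the RPM libraries all lay above the RP libraries, and none had them below, against 4.97% and 4.39% of all genes. With addback 7 of the 18 fell and none rose, against 25.5% and 27.7% of all genes, with a median of -0.31. The 7 were Zfp51, Zfp52, Zfp948, Zfp229, Zfp820, Zfp995 and Zfp942, and they were named after their values were seen.

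Zfp948 was at 60.4, 68.8, 104 and 69.4 CPM in RPM lines, against 47.6, 60, 44.1 and 51.1 CPM in RP lines, and at 67.8, 67.1 and 72.5 CPM with addback, against 86.3, 105 and 94.2 CPM with empty vector. Zfp995 was at 8.04, 10.1, 9.82 and 10.6 CPM in RPM lines, against 4.09, 4.81, 4.02 and 7.07 CPM in RP lines, and at 8.77, 9.71 and 8.87 CPM with addback, against 14.1, 15.3 and 13.6 CPM with empty vector. Their addback changes of -0.45 and -0.60 passed the limma test (adjusted p = 0.00186 and 0.00185). None of the 18 passed it in the lines, where 0.334% of all genes did. RPM replicate 3 was the highest line library for 14 of the 18 and RP replicate 3 the lowest for 13. Without RPM replicate 3 the median was 0.35, with 17 of 18 above 0. Without empty vector replicate 2 the number that fell was 3. Over all genes 2897 fell without that vector library, against 3582 with it.

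**Figure D4:**
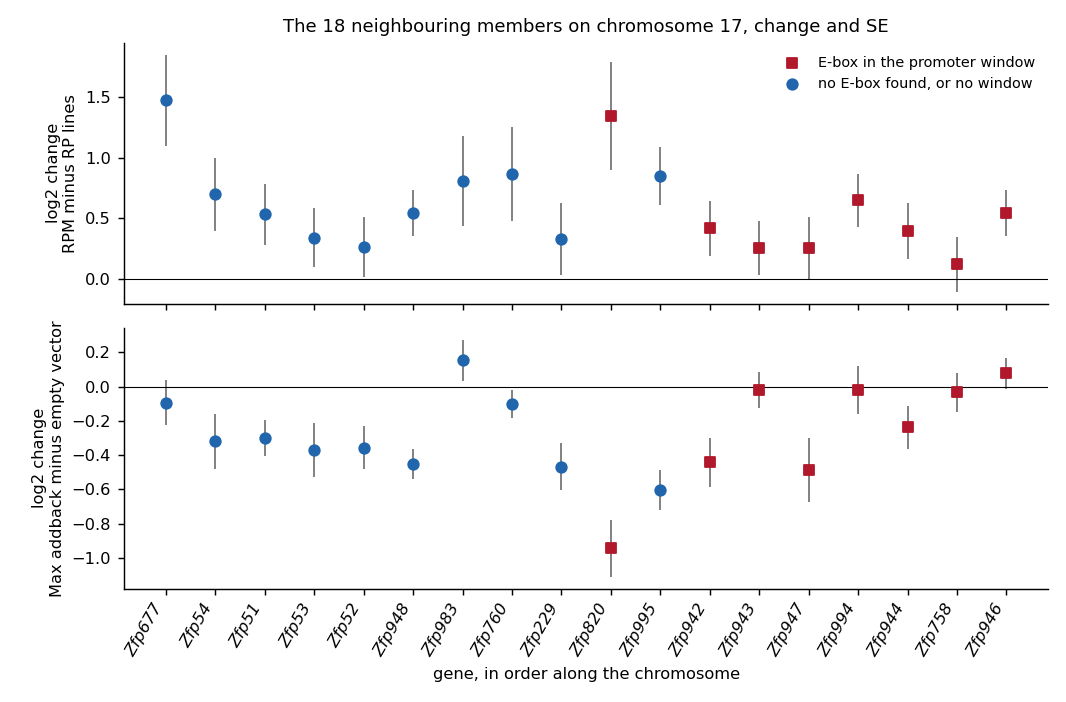
Log2 change of the 18 neighbouring members on chromosome 17 in their order along the chromosome, for RPM minus RP lines (top) and Max addback minus empty vector (bottom). Points are estimates, bars the SE, and squares mark members with an E-box in the promoter window. All 18 lie above 0 in the lines and 16 lie below 0 with addback.

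E-boxes were common at this run. CACGTG, which reads the same on both strands, stood in the window of 8 of the 17 run members that have one (47.1%), against 11.5% of 10802 protein-coding genes with a window and 5.79% of the members outside the run. The 8 genes share 6 E-boxes, since Zfp942 with Zfp943 and Zfp944 with Zfp758 are pairs that start back to back around a single hexamer. In all 6 the hexamer was followed by AC on one strand or the other, as it was in 39.7% of all genes with an E-box. The stretches below are shown because they are the sites of the run outside annotated exons; capitals mark the E-box, and Zfp946 is cut at its start. The windows of the Zfp942 and Zfp944 pairs hold the same 50 bases. The sites are chr17:21845851-21845900, chr17:21962491-21962540, chr17:22225747-22225796 and chr17:22361402-22361451 on the minus strand and chr17:22424170-22424201 on the plus strand.
Zfp820: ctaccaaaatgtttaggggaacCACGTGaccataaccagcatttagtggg
Zfp942: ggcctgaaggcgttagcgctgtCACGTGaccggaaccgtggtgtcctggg
Zfp994: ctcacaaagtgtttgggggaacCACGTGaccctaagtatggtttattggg
Zfp944: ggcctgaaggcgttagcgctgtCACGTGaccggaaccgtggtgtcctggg
Zfp946: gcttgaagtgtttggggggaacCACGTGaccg

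Within the run the differences were not larger in members with an E-box. The 8 members with one had a median log2 change of 0.41 in the lines and -0.14 with addback, where 2 of the 8 fell; the 9 with a window and none had medians of 0.70 and -0.36, and 4 of the 9 fell. Over all 23 members with an E-box, 5 had all RPM libraries above and none below, with a median of 0.26. With addback 6 of the 23 fell and 2 rose, with a median of -0.23. Of all protein-coding genes with an E-box, 32.9% fell and 22.8% rose with addback. The median of these 23 in the lines was 0.13 without RP replicate 3 and 0.16 without RPM replicate 1. With addback it was -0.10 without addback replicate 3, where 8 fell, and 3 fell without empty vector replicate 2. Over all genes 4460 and 2897 fell in these 2 fits, against 3582 with all libraries. Over all 1224 protein-coding genes with an E-box in the lines table the medians ran the same way, at 0.11 in the lines and -0.08 with addback, and 10.6% had all RPM libraries above, against 4.57% of genes with a window and no E-box. Of members with a window and no E-box 45 of 246 rose and 39 fell with addback. Among protein-coding genes with a window and no E-box 28.36% rose and 25.75% fell. The E2F motif GCGGGAA, on either strand, was in the window of 21 members (7.61%) and of 9.89% of protein-coding genes with a window. With addback 5 of these 21 rose and 3 fell, against 27.7% and 25.5% of all genes. A hexamer in a window is a description and not a bound site.

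The second run of chromosome 17, 11 members between 32765496 and 33631779, had a median log2 change of 0.29 in the lines. In 3 members, Zfp871, Zfp472 and Zfp763, the RPM libraries lay above without overlap, as in 4.97% of all genes. Zfp871 was at 219, 299, 306 and 294 CPM in RPM lines, against 200, 143, 199 and 204 CPM in RP lines, and fell to 263, 251 and 177 CPM with addback, against 289, 331 and 297 CPM with empty vector. With addback 4 of the 11, Zfp871, Zfp472, Zfp81 and Zfp101, fell and Zfp811 rose, against 25.5% and 27.7% of all genes. Without RP replicate 2 the median in the lines was 0.11, and without RPM replicate 4 it was 0.48.

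The chromosome 13 run, 16 KRAB-like members between 67038596 and 67827002, leaned higher in RPM lines, with no fall on addback. Its median was 0.47 in the lines, with 15 of 16 log2 changes above 0. In 4 members, Zfp455, Zfp738, Zfp85 and Zfp493, the RPM libraries lay above without overlap, as in 4.97% of all genes. Zfp738 was at 25.7, 44.0, 27.1 and 27.5 CPM in RPM lines, against 18.9, 16.5, 14.5 and 23.7 CPM in RP lines. With addback the run had a median of 0.14, 1 member, Zfp458, rose and none fell, against 27.7% and 25.5% of all genes. In the lines RPM replicate 2 was the highest library for 9 of the 16 and RP replicate 3 the lowest for 10.

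The 3 large runs of chromosome 7 had medians below 0 in the lines. Their addback counts stand beside 27.7% of all genes that rose and 25.5% that fell. The 10 members between 127233061 and 127885996, among them Zfp768, had a median of -0.25 in the lines and 0.18 with addback, where 1 rose. Of the 12 members between 24081924 and 24587641, the 11 listed for the lines had a median of -0.15; with addback the median was -0.08, 3 rose and 1 fell. The 15 members between 29768552 and 30169750 had a median of -0.05 in the lines, as had the 14 listed with addback, and none was called in either. Without RP replicate 4 the median of the run from 29768552 was 0.01 in the lines, and without RPM replicate 2 that of the run from 24081924 was -0.04; with library totals the addback median of the run from 29768552 was 0.02.

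Across both experiments, 13528 genes were listed in both tables. In 9 members (2.84% of 317) all RPM libraries lay above all RP libraries and the gene fell with addback, and this held for 2.42% of all shared genes. The 9 were Zfp105, Zfp106, Zfp239, Zfp472, Zfp593, Zfp820, Zfp871, Zfp948 and Zfp995, and 5 of them stand in the 2 chromosome 17 runs. In 5 members (1.58%) the RPM libraries all lay below and the gene rose with addback, against 1.56% of all shared genes. These were Zfp536, Zfp618, Zfp574, Zfp740 and Zfp865. Zfp618 was at 1.91, 1.49 and 1.28 CPM with addback, against 0.143, 0 and 0.153 CPM with empty vector, far below its level in RP lines.

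Zfp740 was at 100, 110, 105 and 107 CPM in RPM lines, against 130, 131, 118 and 110 CPM in RP lines, and at 126, 123 and 130 CPM with addback, against 85.0, 84.2 and 86.1 CPM with empty vector. In 4 members, Zfp367, Zfp605, Zfp709 and Zscan26, both differences were positive, against 0.673% of all shared genes. Zfp367 was at 117, 141, 119 and 144 CPM in RPM lines, against 81.5, 72.8, 65.5 and 99.0 CPM in RP lines, and rose to 188, 192 and 188 CPM with addback, against 128, 127 and 141 CPM with empty vector. No member was below in RPM lines and fell with addback, which 0.606% of all shared genes did. In 13 members (4.1%) the RPM libraries lay above and in 8 (2.52%) below with no call on addback, against 2.14% and 2.08% of all shared genes.

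**Figure D5:**
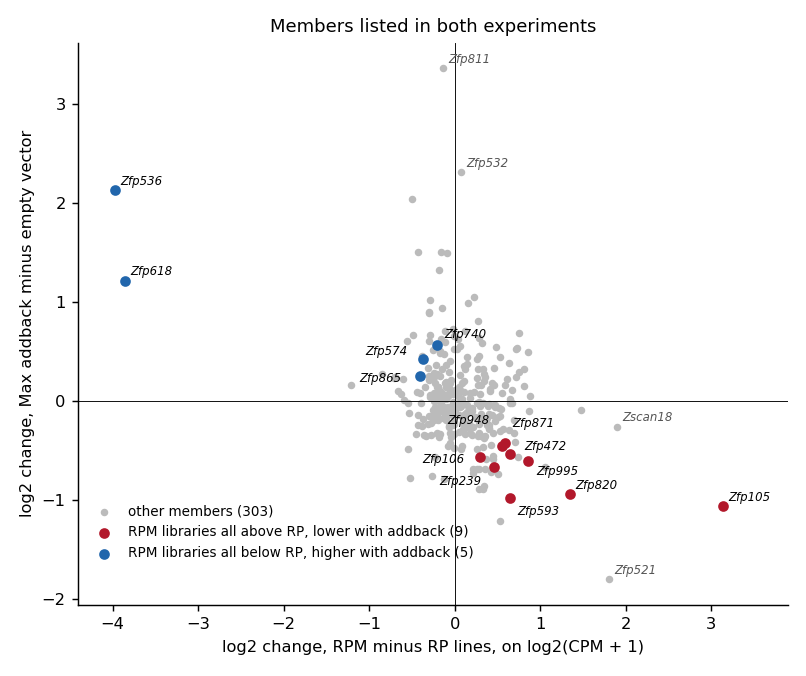
Log2 change of the 317 members listed in both tables, RPM minus RP lines on the horizontal and Max addback minus empty vector on the vertical axis. Red marks the 9 members with all RPM libraries above all RP libraries that fell with addback, blue the 5 with the reverse. Zfp105 lies farthest right and low, and Zfp536 and Zfp618 far left and high.

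Other zinc finger names gave a comparison. Over all genes, 4.97% lay above and 4.39% below without overlap in the lines, where 0.334% passed the test. With addback 27.7% of all genes rose and 25.5% fell. Of 39 Zbtb genes in the lines none passed the test, with 1 above and 1 below without overlap, and of 38 with addback 7 rose and 2 fell. Of 23 Zfp genes with a letter after the number, which the name rule leaves out, 4 lay above and 1 below without overlap in the lines, and of 24 with addback 5 rose and 6 fell. The median log2 change in the lines was -0.09 for Zbtb genes, 0.09 for the lettered Zfp genes and 0.05 for the members.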

How the data were processed

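RNA-seq libraries of cultured thyroid tumour cells were compared as 4 RPM against 4 RP lines and 3 Max addback against 3 empty vector libraries. Per the submitters' processing notes the tools were bcl2fastq 1.8.4, TopHat2 2.1.0, HTSeq 0.6.1 and edgeR, with build mm10; the sources used here name no annotation release, strand setting or gene filter, so reads of a gene and an antisense partner may be mixed. Per the file headers, the authors deposited TMM-normalised CPM (a signal per gene and library), RPKM, log2 fold changes and log2 average levels, p-values with FDR, and their own call as a score (-1, 0 or 1). Where the authors' table is used it is named. The 2 tables were normalised separately, and no column of per-sample values was left aside (0).

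The deposited CPM values were whole multiples of 1 read: dividing gave whole reads within 0.01 for 100% of values, with TMM factors of 0.972 to 1.0477; 3 reads, taken as the floor, were 0.353 to 0.458 CPM. Replicates differed by more than sampling noise, and none were merged. limma 3.58.1 (trend) was fitted to log2(CPM + 1) over all listed genes, so a fold change understates low genes, with Benjamini-Hochberg adjustment and a threshold of 0.05; adjusted p-values in the text are limma's unless another tool is named. edgeR 4.0.16 (quasi-likelihood) and DESeq2 1.42.0 ran on the recovered reads. On data simulated for the lines, with 14360 genes, the limma step found 98% of 4-fold and 26% of 2-fold changes. For the addback, with 14056 genes, it found 100% of both. Only 100 genes per fold were changed, each with a mean above 100 reads. All genes were given the same dispersion, 0.1 for the lines and 0.01 for the addback. These shares therefore do not cover members of few reads or the spread seen between these libraries. Permutation tests used scipy 1.17.1. Intervals and floors cover counting error only.

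The members and the role lists were chosen with earlier results of these data known. Genes are named by rule: Zfp105 and Zscan18, called members, the 6 largest differences without overlap each way in the lines, the 8 largest called each way with addback, called members of role lists and the 5 highest RPKM; others are named where a count is small, after their values were seen. Protein types came from GENCODE M21 transcripts, translated, in place of a protein table (planned from RefSeq): fingers as C, 2 residues, C, 12 residues, H, 3 to 5 residues, H, and KRAB-like and SCAN-like runs by loose patterns. Positions are GENCODE M21 (GRCm38, the mm10 build), promoter windows RefSeq GRCm38.p6. The CPM unit was planned as CPM and is handled as a signal, since its sums vary after TMM. Alternatives are in the closing section. The other 32 libraries, of tumours, were not analysed here.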

Additional observations from a re-analysis of the deposited data

Results flagged for a closer look

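Among the named members, 34 groups of 4 line libraries were screened for a library far from the other 3 (Dixon's gap ratio at the 95% level), and chance flags about 1 in 20. In 4 groups a library stood apart. Zfp536 was at 6.98 CPM in RPM replicate 3, while the other RPM lines were at 0.128, 0.873 and 0 CPM. Zfp618 was at 33.3 CPM in RPM replicate 1, the library whose animal identifier also stands on tumours labelled Rb/p53 mutant, while the other RPM lines were at 0.748, 1.54 and 0.248 CPM. Zfp395 was at 78.6 CPM in RPM replicate 1, below 146, 142 and 135 CPM in the other RPM lines. Zfp664 was at 470 CPM in RP replicate 1, above 303, 280 and 280 CPM in the other RP lines.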

How the results depend on the processing

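In the lines the number of members called higher was 2 and changed with the test: edgeR on recovered reads gave 0, DESeq2 7, the fit with the replicate number as a block 0, and leaving out 1 library 0 to 2. The number called lower was 0, with 6 by DESeq2, 0 under the replicate block and 0 to 1 when 1 library was left out. Over all genes the block gave 0 in both directions, and leaving out 1 library gave 0 to 77 higher and 0 to 184 lower. Zfp105 passed in 10 and Zscan18 in 7 of 16 settings, with adjusted p of up to 0.133 and 0.135. The replicate numbers share only a number: same-numbered libraries deviated together with correlations of 0.0114 to 0.406 in the lines and 0.0202 to 0.0813 in the addback experiment. Members above without overlap ranged from 29 to 40 and members below from 17 to 31 when 1 library was left out. These counts can only stay or rise when a library is left out, so the ranges do not test them. With addback the block gave 61 higher and 57 lower, and leaving out 1 library gave 46 to 80 higher and 36 to 65 lower. Over all genes the block gave 3848 higher and 3590 lower. Leaving out 1 library gave 3320 to 4575 higher and 2846 to 4460 lower over all genes. The addback median of -0.026 was 0.045 with library totals and -0.054 to 0.03 when 1 library was left out. Zfp598 in the lines reversed without RPM replicate 2 (0.054) and without RP replicate 2 (0.02), with -0.23 to 0.054 when 1 library was left out. Of 455 addback values of 35 named genes 425 kept their side of the threshold and 30 lost it; of 255 line values of 17 genes 231 kept it, 15 lost it, 7 gained it and 2 reversed. The settings for runs, KRAB-like and E-box groups were added after seeing the data. At this depth a gene of a few reads, such as Zfp593 or Zscan10, gives a wide ratio, and 2-fold changes between 4 lines are mostly not detectable.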
